A study of Mus musculus with 24 samples.

Results

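The slow fibre contractile and calcium genes examined here were Myh7, Myh6, Tnnc1, Tnni1, Tnnt1, Myl2, Myl3, Atp2a2, Casq2 and Tpm3. They were chosen by name, as every probe of the arrays whose gene symbol, or the current symbol of whose accession, is one of these 10. Earlier results of these data were known when the genes were chosen. They are 10 of the 10891 genes with a probe that could be tested. The rule gave 18 of 41174 probes, of which 16, covering all 10 genes, were bright enough to be tested among the 15958 probes tested in all.

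The arrays measured RNA of gastrocnemius muscle from male C57BL/6N mice, 8 animals in each of 3 groups. Feeding began at 3 months of age and lasted 8 weeks on a high-fat diet with a lipid content of 35% by weight (cHF), on the same diet with an n-3 LC-PUFA (long-chain polyunsaturated fatty acid) concentrate of 46% DHA and 14% EPA in place of 15% of the lipids (cHF+F), or on the high-fat diet with 10 mg rosiglitazone per kg of diet (cHF+ROSI). Rosiglitazone activates PPARgamma, a nuclear receptor that promotes fat cell differentiation and improves insulin sensitivity. All groups thus shared the obesogenic diet, a 10 h fast and refeeding with Chow before they were killed, and no group fed Chow throughout was analysed here. On each array the Cy5 channel held the RNA of 1 animal and the Cy3 channel a reference pool that was the same on every array, so a log2 Cy5/Cy3 value (log2 ratio) gives an animal's level over that pool and is comparable between animals for 1 probe, not between probes.

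Skeletal muscle fibres differ in the isoforms of their contractile proteins. Slow, oxidative fibres use the beta myosin heavy chain, slow troponins and the slow calcium pump, whereas fast fibres carry other members of the same families. Gastrocnemius is a mixed calf muscle in which fast fibres prevail in the mouse. In whole muscle, fewer slow fibres and less slow-type RNA per fibre cannot be told apart. Several of these genes are also the isoforms of the heart (Myh6, Tnnc1, Myl2, Myl3, Atp2a2 and Casq2). Of 9 cardiac markers, the defining ones Tnni3, Nppa, Nppb, Ryr2 and Myl7 were too dim to test.

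Between 30.4% and 91.1% of an array's spots were well above background in Cy5. The 24 arrays lay on 8 slides, each with 1 array of every group at a fixed position, and the replicate number is the slide number. Diet and array position on the slide therefore cannot be told apart. Slides 1 to 3 were on the whole dimmer, the lowest array being cHF replicate 3. The cHF+ROSI array of slide 3 stood apart in another way: the median log2 ratio of its brightest 2% of probes (members and listed genes left out) was -0.69, against -0.25 to 0.08 on all other arrays. The cHF+ROSI array of slide 4 had 91.1% of its spots above background, against at most 61.3% elsewhere.

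Of the probes, Myh7 had a pair that overlap on the minus strand of chr14:53924898-53924957 and chr14:53924903-53924962 (mm8, the build in the scanner files), so they are not independent. Myh6 had probes at chr14:53898964-53900549 and chr14:53900628-53900687, Tnni1 at chr1:137625162-137626037 and chr1:137623982-137625063, Myl3 at chr9:110613944-110614238 and chr9:110608637-110608696, and Tpm3 at chr3:90186351-90186410 and chr3:90175738-90175947. Tnnc1 lay at chr14:30039183-30039599, Tnnt1 at chr7:4111571-4111630, Myl2 at chr5:122364530-122365480 and Casq2 at chr3:102274965-102275025. Atp2a2 had 4 probes on chr5, of which those at chr5:122714312-122714371 and chr5:122721268-122721327 were tested. The other pair had a mean signal over background of 3.10 and 1.34 in Cy5 and of 1.80 and 1.27 in Cy3, so neither reached the minimum of 2 in both channels. No member spot was saturated. A gene is given below by its brightest tested probe unless another is named.

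With the n-3 diet the slow genes lay lower than in cHF, most of all the myosin heavy chains and the slow troponins C and I, but no difference passed an adjusted p of 0.05. By limma, 15 of 16 probes were lower and 1 higher in cHF+F, and 9 probes of 5 genes (Myh7, Myh6, Tnnc1, Tnni1 and Tpm3) were lower with an unadjusted p under 0.05. Over all probes tested 4.00% were lower and 2.85% higher at that p. For 7 of the 9 probes the difference was also at least 1.5-fold, as it was for 0.0752% of all probes. Since the genes were chosen with earlier results of these data known, these shares are a background and not an independent test. Adjusted over all probes, 0% of probes passed in this comparison, and the smallest adjusted p of a member was 0.554. The median difference of the 10 genes was -0.43 on the log2 scale, against 0.00063 over all probes.

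Myh7 encodes the beta myosin heavy chain, the motor of slow fibres. Its log2 ratio had a lowest value of -0.61, a median of -0.05 and a highest of 1.02 in cHF. In cHF+F these were -2.11, -0.82 and 0.53. Of the 8 cHF+F animals 5 lay below every cHF animal, but cHF+F replicate 5 lay above all cHF animals other than replicate 4, so the groups overlapped. The difference was -0.80 (SE 0.37, 95% confidence interval -1.56 to -0.04, unadjusted p = 0.0398, adjusted p = 0.706 by limma), or 0.574 of the cHF level, and cHF+F was lower on 7 of 8 slides. The other Myh7 probe gave -0.84.

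Myh6, the alpha myosin heavy chain best known from the atria and the adult mouse ventricle, ran from -0.42 over a median of 0.15 to 1.02 in cHF. In cHF+F it ran from -1.67 over -0.52 to 0.43, with 6 of 8 animals below every cHF animal. The difference was -0.75 (SE 0.31, unadjusted p = 0.0213, adjusted p = 0.629 by limma), and -0.65 at the other probe. Myh6 and Myh7 are close neighbours of similar sequence on chromosome 14, and whether their probes can bind each other's RNA was not tested.

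Tnnc1, the calcium-binding troponin C of slow and cardiac muscle, had values from -0.19 over a median of 0.23 to 1.04 in cHF. In cHF+F they ran from -1.42 over -0.38 to 0.57. The difference was -0.70 (SE 0.29, unadjusted p = 0.0255, adjusted p = 0.650 by limma). Tnni1 encodes the inhibitory troponin of slow fibres. It ran from -0.32 over 0.06 to 0.97 in cHF and from -1.59 over -0.75 to 0.55 in cHF+F. Its difference was the largest among the brightest probes of the members at -0.81 (SE 0.29, 95% confidence interval -1.41 to -0.20, unadjusted p = 0.0107, adjusted p = 0.554 by limma), and -0.70 at its other probe. For Tnnc1 and Tnni1 alike, 6 of 8 cHF+F animals lay below every cHF animal and cHF+F was lower on 7 of 8 slides.

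Tnnt1, the slow troponin T that ties the troponin complex to tropomyosin, ran from -0.62 over 0.02 to 0.87 in cHF and from -1.80 over -0.41 to 0.31 in cHF+F. Its difference of -0.52 (SE 0.31, unadjusted p = 0.109, adjusted p = 0.833 by limma) missed the unadjusted threshold in this fit, with cHF+F again lower on 7 of 8 slides. With the slide as a block in the model its unadjusted p was 0.0241 (adjusted p = 0.323 by limma). Tpm3 encodes the slow tropomyosin. Its brightest probe varied little, from -0.21 over -0.11 to 0.17 in cHF and from -0.30 over -0.21 to 0.12 in cHF+F, and was lower on all 8 slides, with a difference of -0.14 (SE 0.07, unadjusted p = 0.0435, adjusted p = 0.711 by limma). The other Tpm3 probe, which lies elsewhere in the gene, differed by -0.52, so the probes agree in sign but not in size. Which transcripts of the gene each probe measures was not tested, so neither can be taken as the slow form alone.

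The light chains lay close to 0 or, for Myl3, on both sides of it. Myl2, the regulatory light chain of slow and cardiac myosin, had medians of 0.0021 in cHF and 0.03 in cHF+F and a difference of -0.024 (95% confidence interval -0.40 to 0.35). Myl3, the matching essential light chain, had medians of 0.13 and 0.34, and its brightest probe was higher in cHF+F on 7 of 8 slides (0.13, SE 0.11, unadjusted p = 0.274, adjusted p = 0.933 by limma). Its other probe was lower in cHF+F on all 8 slides, with a difference of -0.26, so the direction of Myl3 depends on the probe.

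Of the calcium genes, Atp2a2 encodes the SERCA2 pump, which returns calcium to the sarcoplasmic reticulum of slow fibres and the heart. It ran from 0.07 over 0.34 to 0.92 in cHF and from -0.48 over 0.03 to 0.71 in cHF+F, with a difference of -0.34 (SE 0.21, unadjusted p = 0.120, adjusted p = 0.852 by limma), lower on 6 of 8 slides. Its other tested probe gave -0.19. Casq2, the calsequestrin that stores calcium in slow and cardiac sarcoplasmic reticulum, differed by -0.08 (95% confidence interval -0.35 to 0.19) and was lower on 4 of 8 slides.

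**Figure D1:**
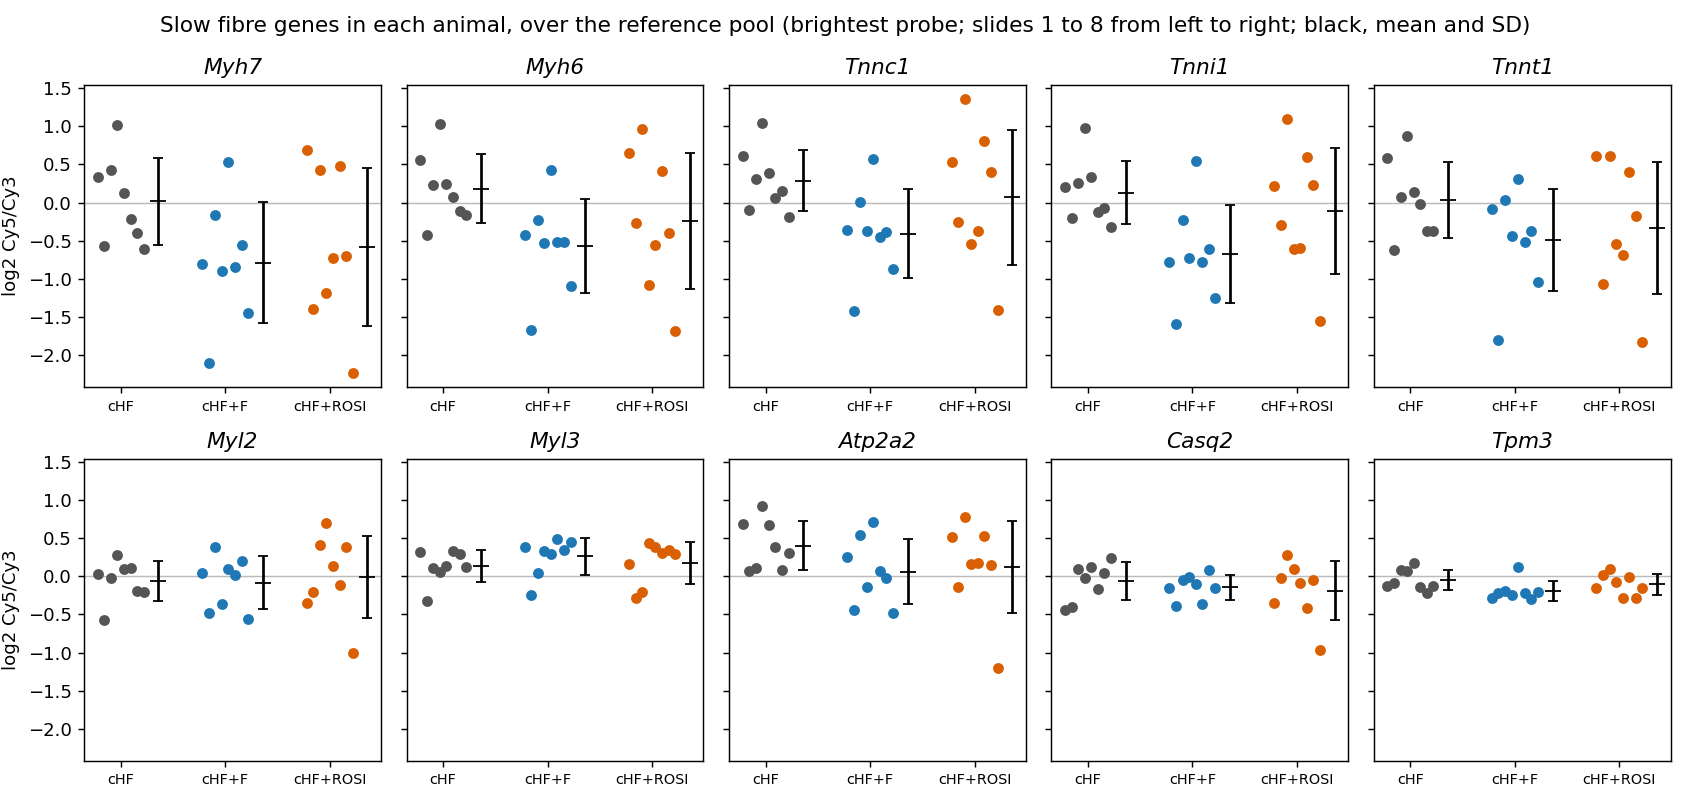
Log2 Cy5/Cy3 of the brightest probe of each gene (y axis) in every animal of the 3 groups (x axis), with points from left to right in the order of slides 1 to 8 and the mean and SD of 8 animals in black. The upper row spreads widely in all groups (Myh7 from -2.24 to 1.02), whereas Tpm3 stays between -0.30 and 0.17.

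The count of 9 probes rested on few arrays. For the fits with 1 array left out, the share over all probes was not computed, so these counts have no background beside them. Without cHF+F replicate 2, the lowest cHF+F animal at Myh7, Myh6, Tnnc1, Tnni1 and Tnnt1, 1 probe kept an unadjusted p under 0.05 and the median difference was -0.30. Without cHF replicate 4, the highest cHF animal at the same 5 genes, 2 probes did. Leaving out cHF replicate 5 or cHF+F replicate 4 gave 5 probes and leaving out cHF+F replicate 8 gave 4. Without cHF replicate 3, the dimmest array, 6 probes passed. Without slides 1 to 3, 1 probe passed and it was the brightest one of Myl3, higher in cHF+F (0.19), as 3.43% of all probes were, although Myh7 still differed by -0.63, Myh6 by -0.66, Tnnc1 by -0.59 and Tnni1 by -0.72.

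With the slide as a block in the model the same differences had smaller errors, 0.28 in place of 0.37 for Myh7. Then 12 probes were lower and 1 higher (the brightest Myl3 probe) with an unadjusted p under 0.05, against 6.44% of all probes lower and 5.67% higher. The number of genes at that p rose from 5 to 8, with Tnnt1, Atp2a2 and both Myl3 probes added. At an adjusted p of 0.05, 6 probes (0.0376%) passed in that fit and none was a member, the smallest adjusted p of a member being 0.196. In the Cy5 channel alone, 4 probes of 3 genes were lower (Myh6 -0.85, Tnnc1 -0.81, Tnni1 -0.91), as were 0.633% of all probes, but the brightest Myh7 probe differed by only -0.23. Its Cy3 signal, which comes from the same pool on every array, differed by 0.54 between these groups. It was 10.25 (log2) on cHF replicate 3 and between 13.10 and 14.05 on all other arrays. With that array left out, Myh7 differed by -0.64 in Cy5 alone and no member probe had a p under 0.05. In Cy3 alone no member differed between cHF+F and cHF with an unadjusted p under 0.05, as 0.489% of all probes did in either direction. In the deposited table of normalized values, the differences were -0.74 for Myh7, -0.77 for Myh6, -0.72 for Tnnc1 and -0.84 for Tnni1, with 8 probes lower at an unadjusted p under 0.05, as 9.69% of all its probes were, and none at an adjusted p under 0.05.

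With rosiglitazone most of the slow genes also lay lower than in cHF, but no probe differed from cHF with an unadjusted p under 0.05. By limma, 14 of 16 probes were lower and 2 higher in cHF+ROSI, with a median of -0.23 over the 10 genes against -0.0086 over all probes. Over all probes 3.01% were lower and 1.69% higher at an unadjusted p under 0.05, and 0% passed an adjusted p of 0.05. Myh7 ran from -2.24 over -0.72 to 0.69 in cHF+ROSI and differed from cHF by -0.60 (SE 0.37, 95% confidence interval -1.36 to 0.16, unadjusted p = 0.118, adjusted p = 0.996 by limma). Of the 8 animals 5 lay below every cHF animal, the others within the cHF range. The SD of Myh7 was 1.04 in cHF+ROSI and 0.57 in cHF, a difference in spread that was not tested. Myh6 differed by -0.42, Tnnt1 by -0.37, Atp2a2 by -0.28, Tnni1 by -0.24 and Tnnc1 by -0.22. Myl2 (0.05) and the brightest Myl3 probe (0.05) lay on the other side of 0. The lowest animal at 8 of the 10 genes was cHF+ROSI replicate 8, without which the median was -0.04, and the highest at Myh6, Tnnc1, Tnni1, Tnnt1, Atp2a2, Casq2 and Tpm3 was replicate 3, the array with the shifted bright probes, without which it was -0.39. Without cHF+ROSI replicate 4, the array with the most spots above background, it was -0.17, and without cHF replicate 4 it was -0.12. With the slide as a block, both Myh7 probes had an unadjusted p under 0.05 (0.0436 and 0.0338). These overlapping probes are 2 of 16, where 5.58% of all probes were lower. Without slides 1 to 3, 4 probes were lower, among them the brightest ones of Myh6 (-0.87) and Casq2 (-0.33), and 1 higher, that of Myl3 (0.16), against 5.87% and 3.21% of all probes. In Cy3 alone 1.86% of all probes and no member probe differed between these groups in either direction, while with the slide as a block 5 member probes and 21.2% of all probes did.

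Set against each other, cHF+F was lower than cHF+ROSI at 14 of 16 probes, with a median of -0.12 over the 10 genes and 0.0084 over all probes. No member had an unadjusted p under 0.05, while 2.65% of all probes were lower and 4.02% higher, and 0% passed an adjusted p of 0.05. Tnni1 was nearest to the threshold (-0.56, SE 0.29, 95% confidence interval -1.17 to 0.04, unadjusted p = 0.0660, adjusted p = 0.768 by limma), followed by Tnnc1 (-0.48). With the slide as a block, 1 probe, that of Tnni1, had a p of 0.0356, which is 1 of 16 where 5.43% of all probes were lower. Myh7 differed by -0.20 (95% confidence interval -0.96 to 0.56). The size of this difference depended on single animals: 4 probes passed without cHF+F replicate 5 and 3 without cHF+ROSI replicate 8, the share over all probes in these fits not being computed. The median was -0.017 without cHF+F replicate 2. Without cHF+ROSI replicate 3 it was -0.038, with Tnni1 at -0.39 and Myh7 at -0.058, and without cHF+ROSI replicate 4 it was -0.13. Without slides 1 to 3 Myh7 was higher in cHF+F (0.23). The 3 comparisons share their groups, so their values are not independent. Ordered by the group means of the log2 ratio, Myh7, Myh6, Tnnc1, Tnni1, Tnnt1 and Tpm3 stood at cHF over cHF+ROSI over cHF+F, and at none of them did neighbouring groups differ with an unadjusted p under 0.05. Atp2a2 had the same order, but without cHF+ROSI replicate 3 it was higher in cHF+F than in cHF+ROSI (0.035). So was Tnnt1 without cHF+F replicate 2 (0.035), and Myh6 (0.21), Tnnt1 (0.16) and Atp2a2 (0.065) without slides 1 to 3. Casq2 stood at cHF over cHF+F over cHF+ROSI, Myl2 at cHF+ROSI over cHF over cHF+F, and the brightest Myl3 probe at cHF+F over cHF+ROSI over cHF, also without a difference at an unadjusted p under 0.05.

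**Figure D2:**
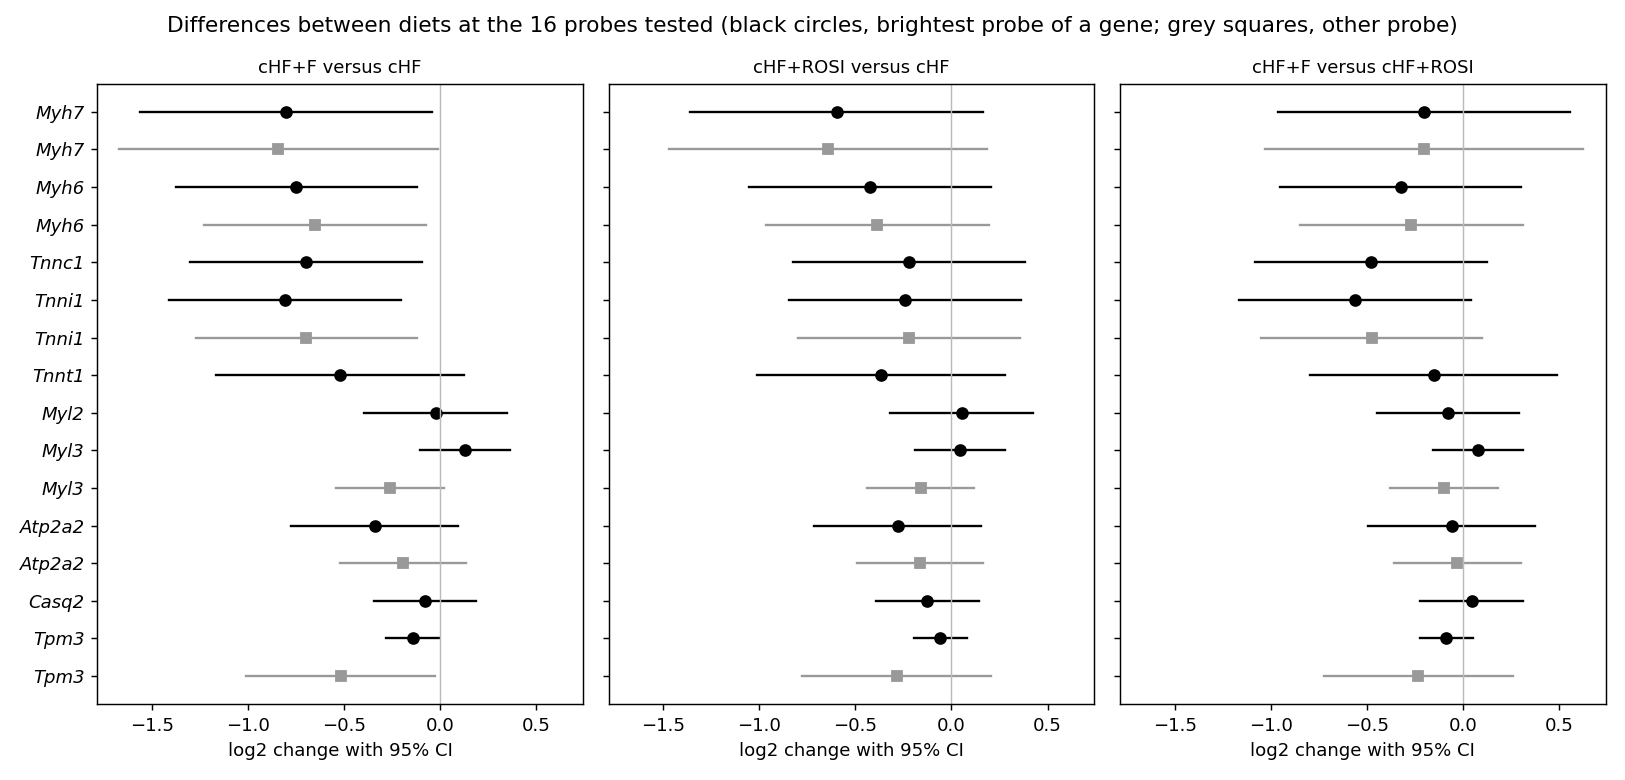
Difference in log2 Cy5/Cy3 between the diets (x axis) with its 95% confidence interval from limma for the 16 probes tested (y axis, by gene), black circles for the brightest probe of a gene and grey squares for its other probe. In cHF+F versus cHF the intervals of Myh7, Myh6, Tnnc1, Tnni1 and Tpm3 lie below 0, and in the other comparisons every interval includes 0.

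Most of the slow genes varied more between animals of 1 group than most probes did. The within-group SD of the log2 ratio was 0.82 for Myh7, 0.70 for Tnnt1, 0.68 for Myh6 and 0.65 for Tnnc1 and Tnni1, in each case above that of at least 99.4% of the probes tested, whose median was 0.15. Atp2a2 (0.47), Myl2 (0.40), Casq2 (0.28) and Myl3 (0.24) were intermediate. The brightest Tpm3 probe had an SD of 0.13, larger than that of 39.5% of probes, whereas the other one had an SD of 0.53. Within cHF alone the animals spanned 3.08-fold in Myh7. In cHF+F they spanned 6.22-fold and in cHF+ROSI 7.62-fold. The Cy3 signal of the same pool had a within-group SD of 0.16 for Tnnt1, 0.32 for Myh6, 0.34 for Tnni1 and 0.40 for Tnnc1, with a median of 0.24 over all probes. It was 0.72 for Atp2a2, 0.64 for Myl3, 0.29 for Myl2 and Tpm3 and 0.16 for Casq2. For Atp2a2, Myl3 and Tpm3 the Cy3 SD was larger than that of the log2 ratio. For the brightest Myh7 probe the Cy3 SD was 0.75, with a group SD of 1.25 in cHF, which holds replicate 3, and of 0.28 and 0.24 in the other groups.

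These differences between animals ran in parallel. Over the 24 arrays Myh7 correlated with Tnnt1 (r = 0.96, rho = 0.93), Myh6 (r = 0.95, rho = 0.92), Tnnc1 (r = 0.92, rho = 0.89), Tnni1 (r = 0.91, rho = 0.89) and Atp2a2 (r = 0.89, rho = 0.82). For these 5 of 9 relations the permutation p was 1e-05, the smallest that 100000 resamples can give (two-sided, 1.8e-05 after Benjamini-Hochberg adjustment over the 9, for both r and rho). With all other probes tested, Myh7 had a median r of 0.018 and a 95th percentile of 0.46. Without the pair of arrays farthest from the Myh7 median, r was still 0.94 for Tnnt1, 0.93 for Myh6, 0.89 for Tnnc1, 0.87 for Tnni1 and 0.85 for Atp2a2.

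The parallel held within each diet, where r of Myh7 with Tnni1 was 0.96 in cHF, 0.99 in cHF+F and 0.87 in cHF+ROSI, and with the slide means removed, where it was 0.90. For Atp2a2 within cHF it was 0.71, with an adjusted permutation p of 0.0759. In Cy5 alone r was lower, at 0.38 for Myh6, 0.30 for Tnni1 and 0.27 for Tnnc1. Without slides 1 to 3 it was 0.96 for Myh6 and 0.92 for both troponins in that channel. In Cy3 alone, which holds the same pool on every array, r of Myh7 was -0.89 with Myh6, Tnni1 and Tnnc1 and 0.76 with Atp2a2.

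The other slow genes had lower r with Myh7. Tpm3 correlated with Myh7 at r = 0.52 (rho = 0.49, adjusted permutation p = 0.0146 for r and 0.0224 for rho) and Myl2 at r = 0.46 (rho = 0.36, adjusted permutation p = 0.0310 and 0.108), the latter falling to 0.24 without the 2 farthest arrays. Casq2 had r = 0.33 (rho = 0.15, adjusted permutation p = 0.123 and 0.489). The brightest Myl3 probe had r = -0.024 (rho = -0.30, adjusted permutation p = 0.912 and 0.176), and -0.71 with the slide means removed. The second probes of Myl3 (r = 0.66) and Tpm3 (r = 0.86) ran closer to Myh7 than the brightest ones did, so the probes of these genes differ also between animals. The arrays share slides: of the within-group sum of squares of Myh7, 59.1% lay between slides, near the median of 53.4% over all probes. For Myh7 the mean deviation of a slide's 3 animals from their group means was -0.91 on slide 2, -0.98 on slide 8 and 0.68 on slide 3.

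**Figure D3:**
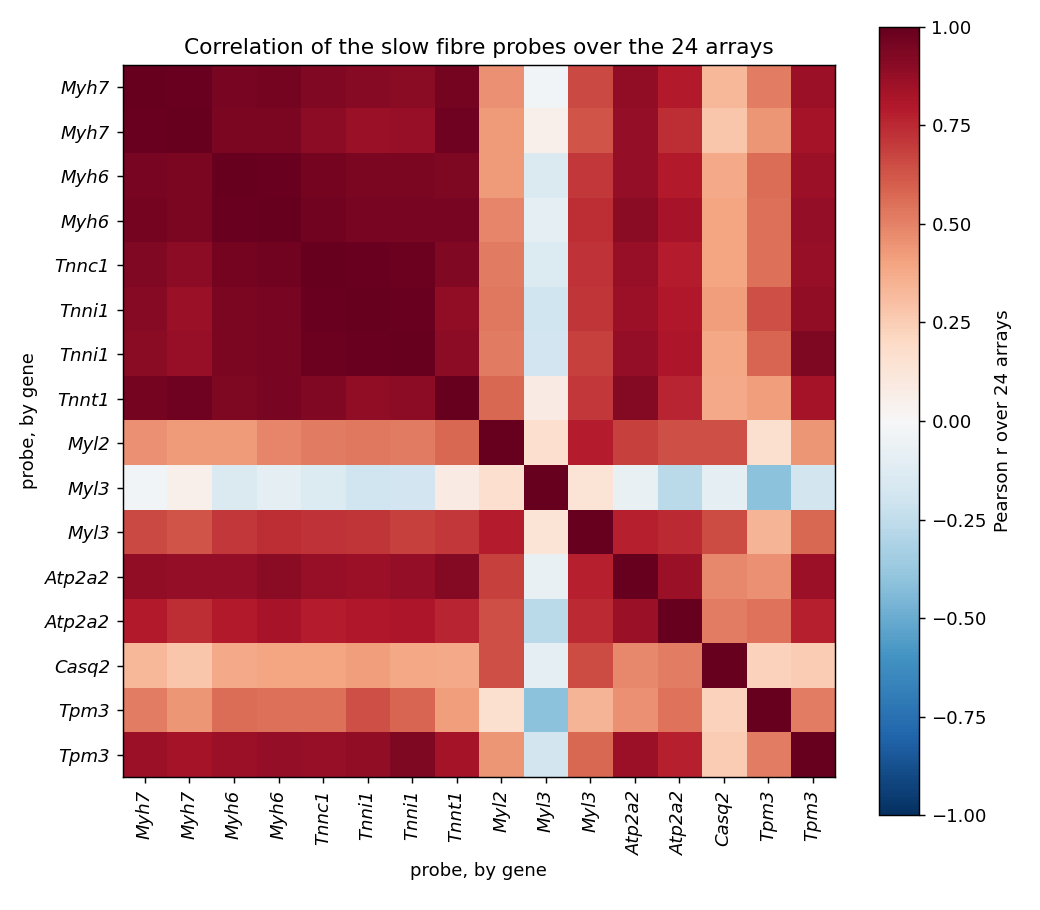
Pearson r over the 24 arrays between the log2 ratios of each pair of the 16 slow fibre probes, listed by gene on both axes. Probes of Myh7, Myh6, Tnnc1, Tnni1 and Tnnt1 form a block of high r (0.89 to 0.99 between their brightest probes), and the brightest Myl3 probe stands outside it.

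**Figure D4:**
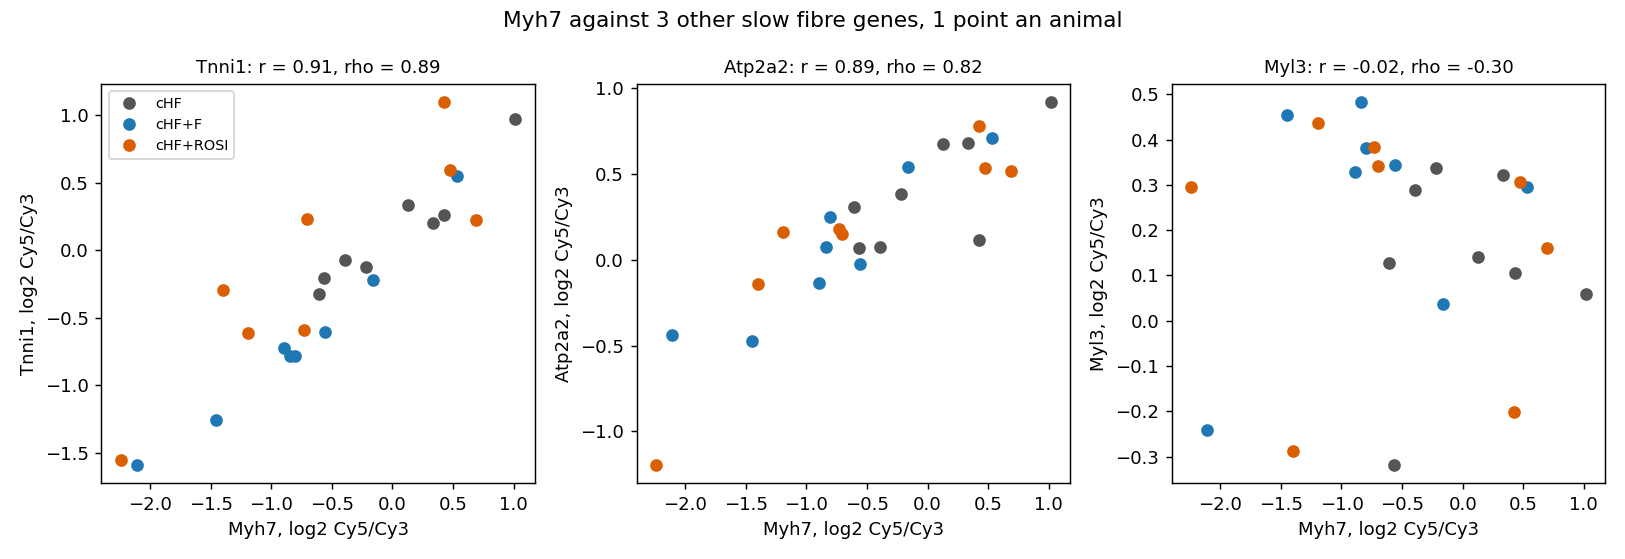
Log2 ratio of Myh7 (x axis) against Tnni1, Atp2a2 and Myl3 (y axes), 1 point an animal, coloured by diet. Tnni1 and Atp2a2 are higher where Myh7 is higher in all 3 groups, with r of 0.91 and 0.89, and Myl3 is not (r = -0.024).

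Because these genes ran in parallel, their sequences just before the transcription start were compared. From RefSeq (GRCm38.p6, another build than that of the probes), 13 windows of 250 bases of 9 of the 10 genes were used, and Atp2a2 was not analysed here. Shown are those of Myh7 and the 4 contractile genes that ran closest to it, and for contrast that of Myl3, 5' to 3' on the gene's strand. Capitals mark the E-box bound by MyoD-type factors (CANNTG), the MCAT element bound by TEAD factors (CATTCC, or GGAATG where it lies on the other strand), the TATA box (TATAAA) and the CArG box bound by SRF. They lie at chr14:54994550-54994799 (minus) for Myh7, chr14:54966608-54966857 (minus) for Myh6, chr14:31208062-31208311 (plus) for Tnnc1, chr1:135799171-135799420 (plus) for Tnni1, chr7:4515976-4516225 (minus) for Tnnt1 and chr9:110763428-110763677 (plus) for Myl3.
Myh7: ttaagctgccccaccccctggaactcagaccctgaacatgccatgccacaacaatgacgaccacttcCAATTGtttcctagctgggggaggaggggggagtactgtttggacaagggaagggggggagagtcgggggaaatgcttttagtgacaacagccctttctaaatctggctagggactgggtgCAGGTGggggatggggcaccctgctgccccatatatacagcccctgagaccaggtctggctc
Myh6: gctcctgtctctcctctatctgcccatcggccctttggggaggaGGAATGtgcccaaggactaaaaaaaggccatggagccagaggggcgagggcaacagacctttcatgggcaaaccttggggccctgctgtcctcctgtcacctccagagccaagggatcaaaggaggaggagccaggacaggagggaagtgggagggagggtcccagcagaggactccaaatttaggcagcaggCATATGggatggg
Tnnc1: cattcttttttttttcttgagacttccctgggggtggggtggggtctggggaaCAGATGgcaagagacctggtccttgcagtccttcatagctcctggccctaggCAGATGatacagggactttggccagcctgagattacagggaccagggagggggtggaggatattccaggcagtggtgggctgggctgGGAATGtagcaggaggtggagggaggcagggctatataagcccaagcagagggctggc
Tnni1: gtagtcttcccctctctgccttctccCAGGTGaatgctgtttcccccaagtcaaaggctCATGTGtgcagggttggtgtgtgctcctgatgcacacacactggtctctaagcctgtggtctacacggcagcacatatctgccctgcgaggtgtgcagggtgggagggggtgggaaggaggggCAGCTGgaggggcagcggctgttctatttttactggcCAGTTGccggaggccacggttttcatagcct
Tnnt1: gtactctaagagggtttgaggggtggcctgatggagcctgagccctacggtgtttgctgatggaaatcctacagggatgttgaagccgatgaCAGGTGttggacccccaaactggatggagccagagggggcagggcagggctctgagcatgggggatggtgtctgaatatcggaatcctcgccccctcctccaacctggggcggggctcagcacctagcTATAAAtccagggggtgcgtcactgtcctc
Myl3: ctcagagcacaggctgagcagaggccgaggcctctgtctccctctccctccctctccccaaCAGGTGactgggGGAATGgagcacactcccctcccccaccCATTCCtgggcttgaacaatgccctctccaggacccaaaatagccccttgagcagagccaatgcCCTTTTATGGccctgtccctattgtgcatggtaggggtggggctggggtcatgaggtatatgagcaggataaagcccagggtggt

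Searched on both strands, all 13 windows held an E-box, a short motif that 66.2% of the 32851 windows of the table hold. An MCAT element was in 4 of 13 windows, those of Myh6, Tnnc1 and Myl3 and a second Myh7 window that overlaps the one shown, against 12.6% of all windows. In Myh6 it lies 206 to 201 bases before the start, in Tnnc1 58 to 53. The letters TATAAA were in 2 windows, of Tnnt1 (30 to 25 bases before the start) and of Myl2, against 12.4%. Other TATA-like letters, such as tatataag near the start of Tnnc1, were not searched or marked. A CArG box was in 1, that of Myl3, against 1.47%. A strict form of the MEF2 consensus was in none, against 0.508%. Looser forms of that consensus were not searched, and the Casq2 window holds such a form. The counts given are matches of the letters searched, not measured binding. Of the motifs searched in these forms, none was shared by Myh7, Myh6, Tnnc1, Tnni1 and Tnnt1 in these windows other than the common E-box.

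The fast counterparts of the slow genes lay close to 0, on both sides of it, in the n-3 group. Of 14 fast contractile genes tested, 4 were lower and 10 higher in cHF+F than in cHF, none with an unadjusted p under 0.05, with a median of 0.07. Myh4, the fastest myosin heavy chain, differed by 0.04, Tnnc2 by 0.13, Tnni2 by 0.09 and Tnnt3 by 0.16. With rosiglitazone, 13 of 14 were lower than in cHF (median -0.13), and in cHF+F versus cHF+ROSI all 14 were higher (median 0.18), again none with an unadjusted p under 0.05. These directions rest on cHF+ROSI replicate 3, whose mean over the 14 genes was -0.86. Without it, 7 were lower and 7 higher in cHF+ROSI than in cHF (median -0.0021), and 6 were lower and 8 higher in cHF+F than in cHF+ROSI (median 0.027). The mean of the 14 genes was then 0.19 in cHF+ROSI and also 0.19 in cHF.

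Taking in each animal the slow log2 ratio minus that of its fast counterpart, Myh7 minus Myh4 was -0.52 ± 0.87 (SD, n = 8) in cHF and -1.36 ± 0.87 in cHF+F. Tnnc1 minus Tnnc2 was 0.22 ± 0.51 and -0.61 ± 0.61. Tnni1 minus Tnni2 was -0.09 ± 0.58 and -0.98 ± 0.71, and Tnnt1 minus Tnnt3 was -0.17 ± 0.73 and -0.85 ± 0.73. Each of these 4 was lower in cHF+F on 7 of 8 slides. In cHF+ROSI Myh7 minus Myh4 was -0.96 ± 1.42 and Tnni1 minus Tnni2 was -0.27 ± 1.25, lower than cHF on 4 of 8 slides for both. Without cHF+ROSI replicate 3 they were -1.25 ± 1.26 and -0.63 ± 0.79 (SD, n = 7). The larger SD in cHF+ROSI was not tested. Myl3 minus Myl1 was 0.060 ± 0.21 in cHF and 0.059 ± 0.17 in cHF+F. A difference of this kind compares balances relative to the pool, not amounts of the 2 RNAs.

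**Figure D5:**
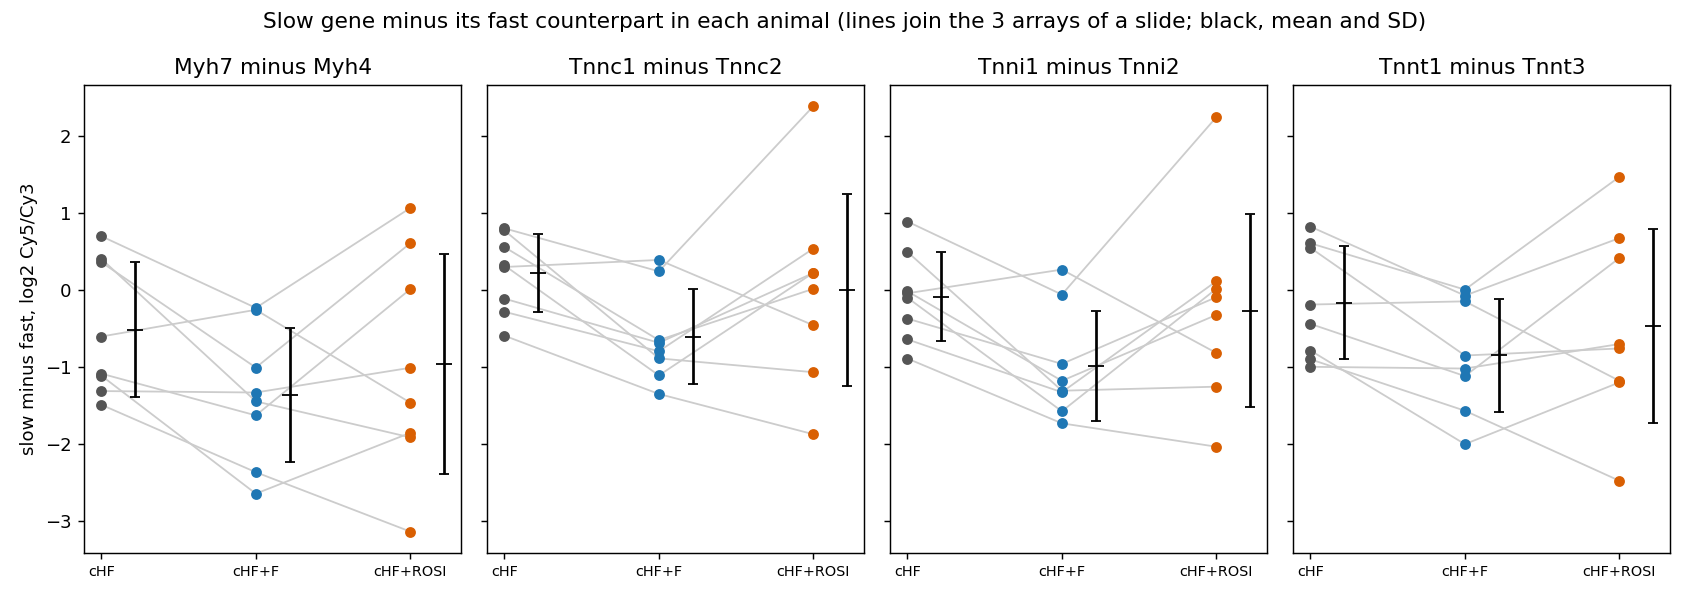
Slow minus fast log2 ratio (y axis) for 4 gene pairs in each animal of the 3 diets (x axis), with lines joining the arrays of a slide and the mean and SD of 8 animals in black. In every panel the cHF+F animal lies below the cHF animal on 7 of 8 slides, and cHF+ROSI replicate 3 is the highest point in all 4.

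Other genes known from slow or stretched fibres lay on the same side as the contractile ones in the n-3 group. Of 17 tested, 16 were lower in cHF+F than in cHF (median -0.19), 5 of them with an unadjusted p under 0.05 and none with an adjusted p under 0.05, where 4.00% of all probes were lower at that unadjusted p. They were Fhl1 (-0.57, unadjusted p = 0.00378), a LIM protein of the sarcomere, Csrp3 (-0.51), the muscle LIM protein of the Z-disc, Ankrd2 (-0.47) and Ankrd1 (-0.46), ankyrin repeat proteins that respond to stretch, and Mybpc1 (-0.21), the slow myosin binding protein C. Of these 5, only Fhl1 was lower on all 8 slides. With rosiglitazone, 11 of 17 were lower than in cHF (median -0.04), with Fabp3, the fatty acid binding protein of oxidative muscle, the 1 gene with an unadjusted p under 0.05 (-0.41), a share near the 3.01% of all probes, and none without cHF+ROSI replicate 3. Against cHF+ROSI, 12 of 17 were lower in cHF+F (median -0.12), 4 with an unadjusted p under 0.05: Csrp3 (-0.68), Ankrd1 (-0.71), Ankrd2 (-0.42) and Fhl1 (-0.38), where 2.65% of all probes were lower. The same 4 had such a p without cHF+ROSI replicate 3.

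Regulators of the slow programme also lay on both sides of 0. They include the calcineurin, NFAT, MEF2, PGC-1, CaMK and HDAC genes and Sox6, which represses slow genes in fast fibres. Of 28 tested, 13 were lower and 15 higher in cHF+F than in cHF (median 0.06). Hdac5, a repressor of MEF2, was lower (-0.22, unadjusted p = 0.00177), and Camk2a (0.24), Eya1 (0.23), Mef2c (0.23) and Ppargc1a (0.28) were higher with an unadjusted p under 0.05, where 4.00% of all probes were lower and 2.85% higher. Ppargc1a encodes PGC-1alpha, a coactivator that promotes slow, oxidative fibres. Between cHF+ROSI and cHF 1 of 28 had an unadjusted p under 0.05 (Mef2d, -0.19), near the 3.01% of all probes lower and none without cHF+ROSI replicate 3, and in cHF+F versus cHF+ROSI 2 did (Camk2a 0.23, Hdac5 -0.17), where 4.02% of all probes were higher and 2.65% lower. Of 18 further calcium handling genes, 7 were lower and 11 higher in cHF+F than in cHF (median 0.03), with Asph, which encodes junctin and related proteins, the 1 with an unadjusted p under 0.05 (0.30), near the 2.85% of all probes higher. Between cHF+ROSI and cHF none did, and in cHF+F versus cHF+ROSI 1 did, Ryr1 (0.24), the calcium release channel of skeletal muscle, and none did without cHF+ROSI replicate 3. None of these genes passed an adjusted p of 0.05.

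Markers of other cells gave the following. Of the 4 cardiac markers tested, 2 were lower and 2 higher in cHF+F (median 0.01), among them Tnnt2 (-0.05) and Actc1 (0.30). The mean log2 ratio of the 4 lay between -0.34 and 0.06 in cHF, -0.14 and 0.14 in cHF+F, and -0.23 and 0.30 in cHF+ROSI. Of 5 general skeletal muscle markers 1 was lower and 4 higher in cHF+F (median 0.09). Of 4 endothelial markers all were lower (median -0.11), 1 of them, Cdh5, with an unadjusted p under 0.05, where 4.00% of all probes were lower. The adipocyte list had 3 lower and 2 higher of 5 (median -0.07), the Schwann cell list 1 lower and 2 higher of 3 (median 0.14), the blood list 2 lower of 2 (median -0.02) and the satellite cell list its 1 tested gene lower (-0.07). In cHF+ROSI the medians against cHF were 0.04 for cardiac, -0.15 for skeletal muscle, -0.16 for endothelial, 0.01 for adipocyte, 0.33 for Schwann cell, -0.40 for blood and -0.09 for satellite cell markers. There Kdr and Tek of endothelium and Hba-a1 of blood were lower with an unadjusted p under 0.05, as were 3.01% of all probes. Without cHF+ROSI replicate 3 Kdr and Tek had such a p, and the skeletal muscle median was -0.0099. In cHF+F versus cHF+ROSI 1 cardiac and 1 blood marker were higher with an unadjusted p under 0.05, as were 4.02% of all probes. No marker passed an adjusted p of 0.05 in any comparison. The part of these cells in the slow fibre values was not tested.

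Outside the 10 genes, those whose brightest probe ran closest to the members' mean log2 ratio over the 24 arrays, out of 10881 genes compared, were Pex11a (r = 0.80), Fgf1 (0.79), Pcp4l1 (0.78), Rab15 (0.74), Pla2g12a (0.72), Dhrs4 (0.72), Prss12 (0.71), BC048679 (0.71), Fhl2 (0.71) and Enc1 (0.71). Pex11a is a peroxisomal membrane protein, Fgf1 a growth factor, Rab15 a small GTPase of endosomes and Fhl2 a LIM protein of heart and muscle. All 10 were lower in cHF+F than in cHF, with differences between -0.10 (Pex11a) and -0.34 (BC048679). The members' mean by which they were picked was itself lower in cHF+F (-0.30) than in cHF (0.10). Their direction is thus not independent of the choice. None was on a list named above. These r values share arrays, slides and loess curves and are given as a description. Of the listed genes, Myom3, an M-band protein, came nearest (r = 0.66). Furthest the other way were Srl (-0.58), a calcium-binding protein of the sarcoplasmic reticulum, Asph (-0.54) and Mylpf (-0.52), the fast regulatory light chain.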

How the data were processed

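Whole-genome mouse arrays were hybridized with muscle RNA of 1 animal (Cy5) and a common reference pool (Cy3), without dye swaps. Per the file headers, the deposited scanner files hold spot intensity values from Agilent Feature Extraction on build mm8. The headers give version 10.5.1.1 and the submitters' processing notes 10.5.5.1. The authors kept probes over a signal-to-background limit and normalized Cy5 against Cy3. The deposited table of normalized values is on a log2 scale: its mean level rose with a slope of 1.09 on log2 Cy5, its cHF+F minus cHF differences with a slope of 1.09 on the log2 ratios (r = 0.85), and its 16 column medians lay between 8.97 and 9.00. How it was centred is not given in the sources used here. Its 8 columns headed cHF+F+ROSI match no sample label and were not used. The third group is taken as labelled.

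Median spot intensity was corrected with normexp (offset 50) and by loess (span 0.3) within each array. Flagged spots were left out and spots of 1 probe averaged. Probes needed a mean signal over background of 2 in both channels and 4 unflagged arrays per group. Groups were compared with limma 3.58.1 (R 4.3.3) on log2 Cy5/Cy3 of all 24 arrays without a block, two-sided, with Benjamini-Hochberg adjustment over 15958 probes. The fit was also run on simulated data with independent noise for each probe and no slide effect, unlike these arrays. Alternatives were the slide as a block, other background and normalization settings, Cy5 alone, other filters, array weights, each array left out, and the deposited table. The alternatives without slides 1 to 3, without the dimmest array in Cy5 alone, and of gene lists and pairs without cHF+ROSI replicate 3 were chosen after seeing the data.

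The replicate number is the slide, by the slide identifiers in the file headers. Deviations from group means of arrays on 1 slide correlated between -0.11 and 0.64 over all probes, above 0.1 in 18 of 24 pairs. Raw Cy5 signals of arrays of 1 group correlated at 0.84 to 0.996, so none was a copy of another. The number of arrays limits the precision.

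Members and gene lists were chosen with earlier results of these data known. All members and probes are named. A gene stands by its brightest tested probe (largest mean log2 Cy5). Of other lists, counts, medians and the genes with the smallest p are given, and 10 genes by r with the members' mean. Further genes named (the fast counterparts with values, Myom3, Srl, Asph, Mylpf, Tnnt2, Actc1) were chosen after their values were seen. Promoter windows are from RefSeq (GRCm38.p6). Probe sequences were not used here.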

Additional observations from a re-analysis of the deposited data

Results flagged for a closer look

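In 30 sets of 8 animals (10 genes in 3 diets) the highest or lowest animal was compared with its nearest neighbour, relative to the whole range, by Dixon's criterion at the 95% level, and 3 sets held an animal that far out. Chance alone marks about 1 set in 20. In cHF+F, replicate 5 was the highest for Tpm3 (0.12, the next animal at -0.20), and it was also the highest cHF+F animal for Myh7, Myh6, Tnnc1, Tnni1, Tnnt1 and Atp2a2. In cHF+ROSI, replicate 8 was the lowest for Atp2a2 (-1.20, the next at -0.14), and it was also the lowest of its diet for Myh7, Myh6, Tnnc1, Tnni1, Tnnt1, Myl2 and Casq2. In cHF, replicate 2 was the lowest for Myl3 (-0.32, the next at 0.06). The cHF+F and cHF+ROSI animals of slide 2 were the lowest for Myl3 in their groups too, at -0.24 and -0.29.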

How the results depend on the processing

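No slow fibre gene probe passed an adjusted p of 0.05 in limma under any alternative, in any comparison (0 probes, while 9, 0 and 0 had an unadjusted p under 0.05). The median difference over the 10 genes in cHF+F versus cHF stayed negative throughout, from -0.54 to -0.23, and from -0.53 to -0.30 with 1 array left out. For cHF+ROSI versus cHF it ran from -0.51 to -0.23, and from -0.39 to -0.04 with 1 array left out. For cHF+F versus cHF+ROSI it ran from -0.24 to 0.05 and from -0.31 to -0.017, and was above 0 with array weights and without slides 1 to 3. The cause of these shifts was not tested.

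The number of member probes with an unadjusted p under 0.05 in cHF+F versus cHF was 2 with median centring in place of loess, 4 in Cy5 alone, 0 in Cy5 alone without the dimmest array, 1 without slides 1 to 3, and 1 to 10 with 1 array left out. With the slide (replicate block) it was 13, within 1.5 times the 9 without it. In cHF+ROSI versus cHF it was 2 with the replicate block, 2 with array weights, 5 without slides 1 to 3 and 0 to 2 with 1 array left out, 2 without cHF+ROSI replicate 1. In cHF+F versus cHF+ROSI it was 1 with the replicate block and 0 to 4 with 1 array left out. In Cy3 alone, cHF+ROSI versus cHF gave 5 with the replicate block. The share over all probes was not computed for median centring, array weights, Cy5 alone without the dimmest array, or fits with 1 array left out. With the block the genes at that p in cHF+F versus cHF were 8 in place of 5, and at an adjusted p of 0.05 it changed no call of a member. Of the 9 correlations with Myh7, 7 passed in the log2 ratio, 4 in Cy5 alone and 5 to 7 otherwise, though not always the same genes. The 4 in Cy5 alone were Tnnt1, Myl2, Myl3 and Atp2a2, while Myh6, Tnnc1 and Tnni1 did not pass there. In Cy3 alone, with the same pool on every array, r with Myh7 was 0.90 for Myl3, 0.76 for Atp2a2, 0.46 for Myl2 and -0.32 for Tnnt1. It was -0.89 for Myh6, Tnnc1 and Tnni1, -0.83 for Tpm3 and -0.71 for Casq2. The part of the array signal in the Cy5 correlations was not tested. Myl3 passed with a negative r when slide means were removed (-0.71) and without slides 1 to 3 (-0.56).

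The following differences of single genes changed sign, each with an adjusted p above 0.05. In cHF+F versus cHF, Myl2 was 0.13 in Cy5 alone and 0.027 in the deposited table, Myl3 was -0.066 as the mean of its probes and -0.073 in Cy5 alone without the dimmest array, where Casq2 was 0.0094. In cHF+ROSI versus cHF, Cy5 alone gave 0.094 for Myh7 and 0.080 for Atp2a2, array weights -0.0017 for Myl2 and -0.022 for Myl3, and the mean of probes -0.057 for Myl3. In cHF+F versus cHF+ROSI, Myl3 was -0.033 without background correction, -0.035 with the scanner software's processed signals, -0.017 with a loess span of 0.1, -0.083 with median centring, -0.097 in Cy5 alone with or without the dimmest array, and -0.0086 as the mean of probes. There Tpm3 was 0.067 in Cy5 alone, also without the dimmest array. Array weights gave 0.026 for Myh7, 0.044 for Tnnt1 and 0.0055 for Atp2a2. Without slides 1 to 3 the values were 0.23 for Myh7, 0.21 for Myh6, 0.16 for Tnnt1 and 0.065 for Atp2a2. With 1 array left out, Myl2 ran from -0.096 to 0.045 in cHF+F versus cHF. It ran from -0.047 to 0.20 in cHF+ROSI versus cHF, where Myl3 ran from -0.018 to 0.11. In cHF+F versus cHF+ROSI the ranges were -0.37 to 0.035 for Tnnt1, -0.22 to 0.023 for Myl2, -0.25 to 0.035 for Atp2a2 and -0.064 to 0.11 for Casq2. With 8 arrays in a group, the 95% confidence interval of Myh7 ran from -1.56 to -0.04 in cHF+F versus cHF, and a member probe too dim to test has no value.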
